A study of Arabidopsis thaliana with 12 samples.

Results

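Brassinosteroid receptor and signalling genes were examined for peaks of a tagged DELLA protein in Arabidopsis inflorescences. The genes were chosen by name and not by a rule on their values, though with earlier results of these data known. They were the receptor genes BRI1, BRL1 and BRL3, the co-receptor gene BAK1 (AT4G33430) and the inhibitor gene BKI1. The others were the phosphatase gene BSU1, the kinase gene BIN2 and the transcription factor genes BZR1 and BES1. The set holds 9 of 27444 nuclear protein-coding genes in the gene table used. A gene was given every peak whose summit lay inside it or within 1000 bp of it.

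Chromatin immunoprecipitation and sequencing with an antibody to GFP was done in 3 genotypes, all in the Landsberg erecta (Ler) ecotype. These were non-transgenic Ler plants, plants with pGAI:gai∆17-3xYPet (here gai-YPet), and plants with the same transgene in the cuc2-1 mutant (gai-YPet cuc2-1). The transgene encodes GAI without 17 residues, joined to a triple YPet fluorescent tag, and is driven by the GAI promoter. Its peaks report association of the tagged protein with chromatin, direct or not, where that promoter is active. GAI without its DELLA motif is known to escape gibberellin-induced degradation, so the tagged protein is a stabilised form. CUC2 is a NAC transcription factor of organ boundaries. Each genotype had 2 independent biological replicates of 1.8 g of inflorescences, taken from main stems with 5 to 10 flowers after open flowers and older buds were removed. No treatment or plant age beyond maturity in long days is stated. There were 6 ChIP and 6 input libraries, and 1 peak list per ChIP library was analysed.

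Brassinosteroids are steroid hormones of growth that are perceived at the cell surface. BRI1 binds the hormone together with BAK1, and BKI1 keeps BRI1 inactive until the hormone arrives. The signal passes through receptor-associated kinases and phosphatases of the BSU1 type to inactivate BIN2, a GSK3-like kinase that otherwise phosphorylates BZR1 and BES1 and so keeps them from acting on their target genes. DELLA proteins are known to bind the BZR1 protein. The peaks described here concern chromatin at the genes and not that contact between proteins.

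The Ler lists were short, with 234 and 406 peaks. Tagged plants gave 7042 and 11289 peaks without the mutation and 8193 and 3666 with it. Depth is unknown, since peak lists carry no read totals, and a longer list reaches more genes. The tagged lists all end at a similar −log10 q, between 2.01 and 2.13. List length therefore does not tell how weak the listed peaks are. Folds are the authors' own enrichment of each peak, with list medians between 1.52 and 1.83 for Ler and between 2.57 and 3.25 for the tagged genotypes. A percentile gives a peak's place by q-value within its own list, where 100 is strongest. Positions are those of build TAIR10 as the peak lists give them. The gene table gives no strand, so sides of a gene are named by lower or higher coordinates. Inflorescences mix cell types, and a strong peak in few cells and a weaker one in many cannot be told apart.

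In gai-YPet plants, 5 of the 9 genes had a peak in both replicates: BRI1, BRL1, BAK1, BKI1 and BIN2. The same call was made for 18.1% of all nuclear protein-coding genes. BRL3, BZR1 and BES1 had a peak in replicate 2 only, and BSU1 had none. By list, 5 of the genes had a peak in replicate 1 and 8 in replicate 2, against 18.8% and 31.8% of all genes. With the gene alone counted and no flank, 4 of the 9 had a peak in both gai-YPet replicates, against 6.21% of all genes, BAK1 being the one that dropped out. Without replicate 1 the count of 5 therefore becomes 8. The genes were longer than most, with a median length of 4522 bp against 2078 bp over all genes, and a longer gene offers a longer window. Among the 14426 genes within the length range of the 9, from 1857 to 5292 bp, 21.7% had a peak in both gai-YPet replicates. That range starts below the median of all genes, so this share is not matched to the median length of the 9. The part of gene length in the count was not tested further.

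The untagged Ler lists held no peak within 3000 bp of any of the 9 genes. A Ler peak was rare at any gene: by the 1000 bp rule 0.051% of all genes had one in replicate 1, 0.215% in replicate 2 and 0.244% in either. The number of the 9 genes with a peak was 0 and 0 in the Ler lists, and 5, 8, 6 and 3 in the 4 tagged lists. The tagged lists had a mean of 5.5, and 4 of 4 lay above both Ler lists (exact permutation test over 15 splits, two-sided p = 0.0667, the smallest the design allows). The Ler lists reach so few genes that counts of 0 say little about these 9, and the test shows nothing particular to them. No tagged peak at these genes overlapped a Ler peak.

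**Figure D1:**
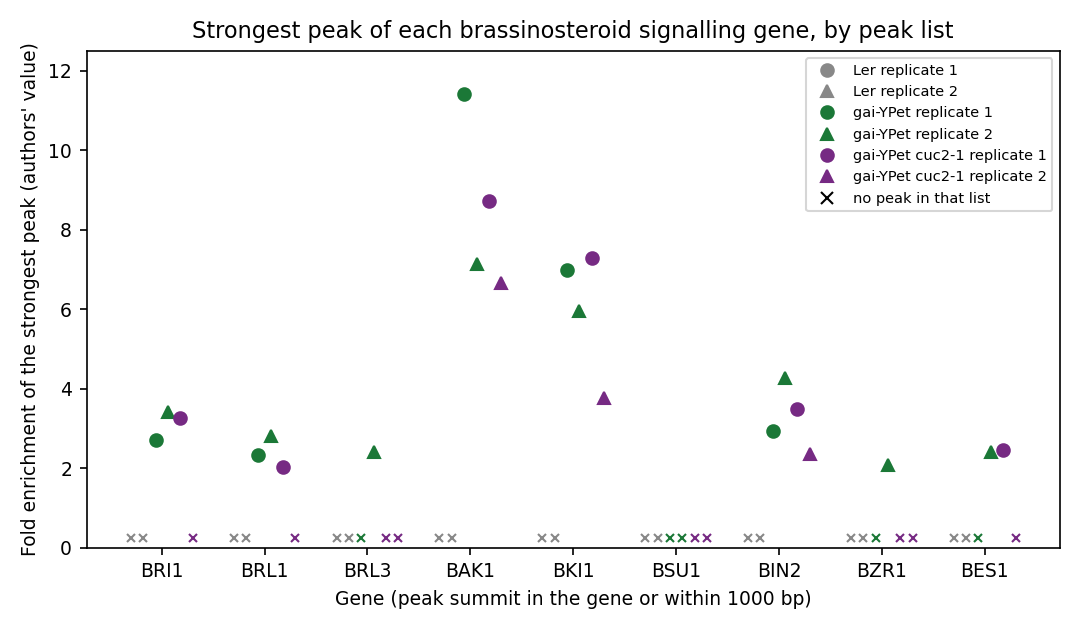
Fold enrichment (authors' value, vertical axis) of the strongest peak by q-value at each of the 9 genes, with 1 point per peak list. Crosses mark lists without a peak. BAK1 and BKI1 stand highest, at 11.4 and 6.99 in gai-YPet replicate 1, and the Ler lists have crosses throughout.

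BAK1, which encodes the co-receptor that BRI1 shares with other receptor kinases, including those of immunity, had the strongest peak of the 9 genes in every tagged list, also when peaks up to 3000 bp away were included. Its folds were 11.4 and 7.15 in gai-YPet replicates 1 and 2, and 8.72 and 6.67 in gai-YPet cuc2-1 replicates 1 and 2. All 4 peaks stood at or above the 99.1 percentile of their lists. Ranked by the q-value of its strongest peak, BAK1 was number 30 of 5151 genes with a peak in gai-YPet replicate 1 and number 88 of 8725 in replicate 2. In the mutant it was number 43 of 5696 and number 31 of 2860.

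The strong BAK1 peak lay outside the gene on the side of higher coordinates, and the 4 summits fell within 35 bp of each other. In gai-YPet replicate 1 it ran from 16091252 to 16091972 on chromosome 4. The summit was nearer to the neighbouring gene AT4G33440 than to BAK1, and both genes are counted for it. A weaker peak lay right beside BAK1, and BAK1 was the nearest gene to that one. It had folds of 4.37 in gai-YPet replicate 1 and 4.27 and 2.94 in the mutant replicates, with summits 670, 670 and 610 bp from the strong one. In gai-YPet replicate 2 a single peak of 1809 bp, from 16090375 to 16092183, covered both places, so the weaker one is not listed separately there.

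BKI1, the membrane-bound inhibitor of BRI1, had the next strongest peak within the 1000 bp limit. It lay outside the gene on the side of higher coordinates, from 17144862 to 17145371 on chromosome 5 in gai-YPet replicate 1, and its 4 summits fell within 25 bp. The gai-YPet replicates had folds of 6.99 and 5.95, and the mutant replicates 7.29 and 3.78. Mutant replicate 2 was the lowest, at the 88.4 percentile of its list, and the other lists lay between 95.4 and 97.8. BKI1 also carried further, weaker peaks along the gene. It had 3 peaks in each gai-YPet list and 4 and 2 in the mutant lists. Among genes with a peak, 3 or more were counted for 3.9% and 6.53% in the gai-YPet lists. In the mutant lists the shares were 5.07% and 2.03%.

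The weaker BKI1 peaks lay towards both ends of the gene. At the end of lower coordinates the folds were 2.38 and 3.38 in gai-YPet. Mutant replicate 1 had a pair of peaks there, at 1.95 and 2.19, and mutant replicate 2 had 1 peak at 1.78, which was near the bottom of its list at the 1.17 percentile. Towards the other end, inside the gene, the folds were 2.55 and 2.52 in gai-YPet and 2.11 in mutant replicate 1, and mutant replicate 2 had no peak.

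**Figure D2:**
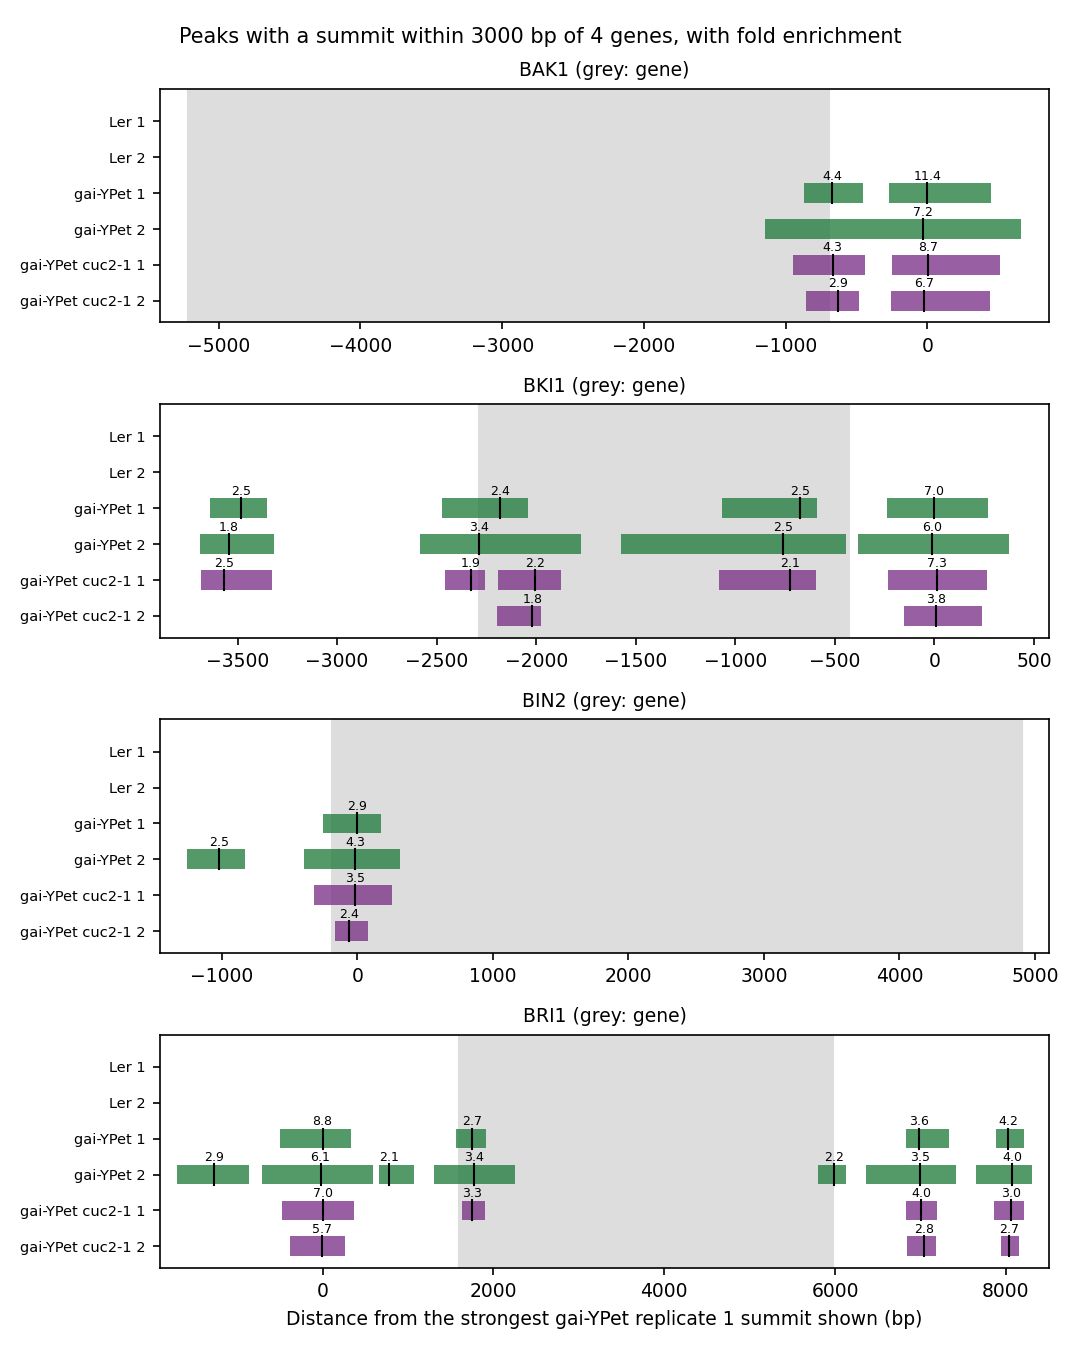
Peaks of the 6 lists around BAK1, BKI1, BIN2 and BRI1, as distance in bp from the strongest gai-YPet replicate 1 summit shown. Bars are peaks, black ticks are summits, numbers are folds (rounded), and grey is the gene as placed by the gene table. Within each panel the strongest summits line up across the 4 tagged lists, and the BRI1 site with folds of 8.82, 6.09, 6.96 and 5.65 lies outside the 1000 bp limit.

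BRI1, the main brassinosteroid receptor gene, had a modest peak by the 1000 bp rule. This peak lay inside the gene within 250 bp of the end of lower coordinates, from 18324418 to 18324766 on chromosome 4 in gai-YPet replicate 1. Its folds were 2.71 and 3.42 in gai-YPet and 3.26 in mutant replicate 1, and mutant replicate 2 had none. The percentiles were spread widely, at 25.3, 71.8 and 63.9. In gai-YPet replicate 2 BRI1 had 2 further peaks, with folds of 2.12 and 2.19, that no other tagged list had. The latter was also counted for PLS, a small-peptide gene, and for its neighbour AT4G39404.

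A much stronger peak lay between 1000 and 2000 bp from BRI1 and so outside the rule. It ran from 18322355 to 18323197 in gai-YPet replicate 1, and its 4 summits fell within 32 bp. The folds were 8.82 and 6.09 without the mutation and 6.96 and 5.65 with it, at percentiles of 96.5, 98.5, 97.3 and 97.3. All 4 tagged lists had it, and each placed it among its strongest peaks. BRI1 was the nearest gene to these summits, and no gene of the table lay within 1000 bp of them.

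The 1000 bp limit passed close to other peaks as well. Just inside it, between 800 and 1000 bp from the gene, were peaks of BRI1 (fold 2.12), BRL1 (2.56, 2.33 and 2.04) and BIN2 (2.45). Just outside, between 1000 and 1200 bp, was a further BRI1 peak in all 4 tagged lists, with folds of 3.63, 3.53, 3.99 and 2.77, and a BKI1 peak of 2.54 in gai-YPet replicate 1. The BRI1 peaks just outside were nearer to AT4G39404 than to BRI1. The BKI1 site was nearest to AT5G42740. It was also listed in gai-YPet replicate 2 (1.8) and mutant replicate 1 (2.5), with summits beyond 1200 bp from BKI1. With 3000 bp to each side, 8 of the 9 genes had a peak in both gai-YPet replicates, BES1 being the exception, against 30.3% of all genes.

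BRL1 and BRL3, receptors of the BRI1 family that are known from vascular tissue, had weak peaks. At BRL1 a peak deep inside the gene had folds of 2.34 and 2.81 in gai-YPet and was absent from both mutant lists. A peak beside the gene had folds of 2.56 and 2.33 in gai-YPet and 2.04 in mutant replicate 1, where it stood at the 9.38 percentile. A site between 1000 and 2000 bp from BRL1 was present in all 4 tagged lists, with folds of 2.76, 3.27, 2.41 and 2.48, and its nearest gene was CLC-F. BRL3 had 1 peak by the rule, inside the gene in gai-YPet replicate 2, with a fold of 2.4. A stronger site lay between 2000 and 3000 bp from BRL3 in all 4 tagged lists, at 3.97, 4.24, 4.17 and 3.12. Its nearest protein-coding gene was AT3G13370.

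BIN2, the GSK3-like kinase gene of the pathway, had 1 site in all 4 tagged lists. It lay inside the gene within 250 bp of the end of lower coordinates, from 10296071 to 10296500 on chromosome 4 in gai-YPet replicate 1, with summits within 63 bp of each other. Its folds were 2.94 and 4.28 in gai-YPet replicates, against 3.49 and 2.35 in the mutant. The percentiles ran from 31.5 in mutant replicate 2 to 85.6 in gai-YPet replicate 2, so the site was found each time but its standing varied between replicates of the same genotype. BSU1, the phosphatase gene, had no peak by the rule in any list. Between 2000 and 3000 bp from it, peaks of 2.6 and 3.04 in gai-YPet and 2.84 in mutant replicate 1 were nearer to AT1G03440.

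The transcription factor genes at the end of the pathway had no peak that both replicates of a genotype shared. BES1 had a peak inside the gene, within 250 bp of an end, with folds of 2.42 in gai-YPet replicate 2 and 2.45 in mutant replicate 1. These are the longer lists of each genotype. BZR1 had 1 peak, of 2.09 in gai-YPet replicate 2, which AT1G75090 and AT1G09527 also counted and which was nearest to AT1G75090. A stronger site between 1000 and 2000 bp on the other side of BZR1 was present in all 4 tagged lists, at 3.66, 3.73, 2.57 and 2.3. It was nearest to AT1G75060.

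The place of the peaks was compared with that over all genes, as a description. Peaks of both replicates were added together, so a site found in both is counted once for each. In gai-YPet, 11 of 23 peaks of the 9 genes (47.8%) lay outside the gene, against 63.8% of 18366 gene and peak pairs over all genes. Inside the gene within 250 bp of an end lay 8 of 23 (34.8%), against 20.5%. In gai-YPet cuc2-1, 8 of 15 lay outside (53.3%), against 65.3%. For the other signalling genes described below, 15 of 34 lay outside in gai-YPet (44.1%). The distance of 250 bp was chosen after the positions were seen, and the peaks of 1 gene are not independent. The part of gene length in these shares was not tested.

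The mutant plants address whether CUC2 is needed for the tagged protein to be found at these genes. In gai-YPet cuc2-1, 3 of the 9 genes had a peak in both replicates, BAK1, BKI1 and BIN2, against 10.2% of all genes. These 3 were also the ones with a peak in all 4 tagged lists, which 9.72% of all genes had. By list, 6 and 3 of the 9 genes had a peak in mutant replicates 1 and 2, against 20.8% and 10.4% of all genes. With the gene alone counted, 2 of the 9 had a peak in both mutant replicates, against 3.41%. All 5 genes called in gai-YPet had a peak in mutant replicate 1, as did 91.6% of all genes called in gai-YPet. In mutant replicate 2, the shortest tagged list, 3 of the 5 had one, against 54% of all such genes, and BRI1 and BRL1 were without. Without mutant replicate 2 the count of 3 becomes 6. By the 1000 bp rule BAK1 and BKI1, the strongest in gai-YPet, were also the strongest in both mutant lists. The BRI1 site beyond that limit was stronger than BKI1 by q-value in both gai-YPet lists and in mutant replicate 2.

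The genotypes were also set side by side at equal list length. When each tagged list was reduced to its 3666 strongest peaks, 2 and 4 of the 9 genes had a peak in the gai-YPet replicates, and 4 and 3 in the mutant replicates. The difference of means was -0.5 genes, with means of 3 and 3.5, and its groups overlapped (exact permutation test, two-sided p = 1, where 0.333 is the smallest this design allows, so the test could not have called a difference of any size). It became 0.5 without gai-YPet replicate 1, 0.5 in the stronger 50% of each list and 2 with the lists as deposited. All genes by the same rule gave 11.2%, 11.8%, 11.5% and 10.5% in the 4 reduced lists. BAK1 and BKI1 were in all 4 reduced lists. BRI1 and BIN2 were added in gai-YPet replicate 2 and mutant replicate 1, and BIN2 in mutant replicate 2.

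**Figure D3:**
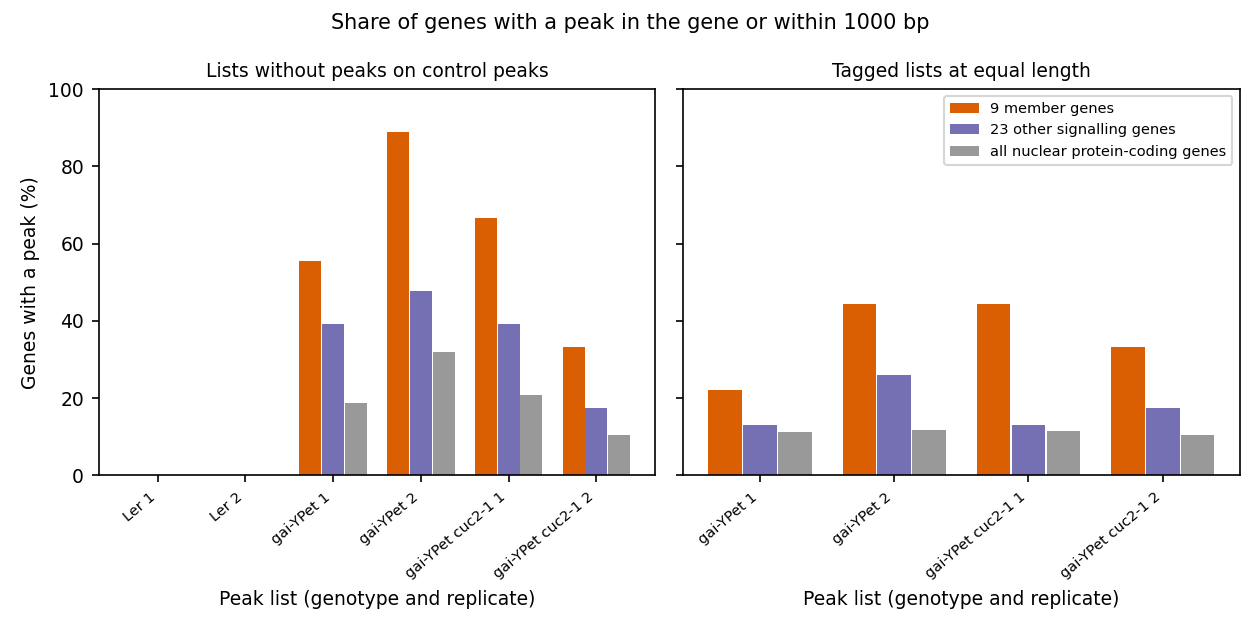
Percent of genes with a peak in each list, for the 9 genes, 23 other brassinosteroid signalling genes and all nuclear protein-coding genes. The left panel has each list without peaks on control peaks, and the right panel has the tagged lists reduced to 3666 peaks. When the gai-YPet replicate 2 list is shortened, the share falls from 88.9% to 44.4% for the 9 genes and from 31.8% to 11.8% for all genes.

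The wider pathway was described with 23 other signalling genes, chosen by name. In gai-YPet 9 of them (39.1%) had a peak in both replicates, against the 18.1% of all genes. A peak in any tagged list was found for 11 of the 23 (47.8%), against 9112 of all 27444 genes, and 12 had none. In gai-YPet cuc2-1 there were 4 (17.4%), against 10.2%, namely BSK1, BEH2, BEH4 and BRS1. Of the 9 genes, 8 had a peak in mutant replicate 1, BIL2 being the exception, and 4 in mutant replicate 2. These counts are near the 91.6% and 54% of all genes called in gai-YPet. None had a Ler peak.

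Counts by gene family rest on few genes each, and differences between families were not tested. The share of all genes called by the same rule, 18.1%, is the background for each of them. Of the homologues of BZR1, all 4 BEH genes had a peak in both gai-YPet replicates, whereas BZR1 and BES1 had not. BEH2 was the strongest of them, with folds of 4.72 and 4.65 in gai-YPet and 4.5 and 3.53 in the mutant. Its peak was also counted for AT4G36770 and AT4G09385. A further BEH2 peak at the other end of the gene had folds of 3.33, 3.89, 3.56 and 2.74, so BEH2 had a peak at both ends in all 4 tagged lists. The strongest peaks of BEH1 (2.81 and 3.54), BEH3 (2.78 and 2.87) and BEH4 (2.59 and 2.3) in gai-YPet were weaker. In mutant replicate 1 the folds of BEH1, BEH3 and BEH4 were 2.76, 2.76 and 2.43, and in mutant replicate 2 only BEH4 had a peak, of 1.96. The BEH3 peak of the mutant lay on the side of lower coordinates, where gai-YPet replicate 1 had a peak of 2.43. In gai-YPet replicate 2 a single peak of 2321 bp, with a fold of 2.62 and its summit inside the gene, also covered that place. The strongest BEH3 peaks of gai-YPet lay on the side of higher coordinates, where no mutant peak was counted.

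The GSK3-like kinase genes close to BIN2 were also found in both gai-YPet lists, so that all 3 of BIN2, BIL1 and BIL2 were counted. The strongest peaks of BIL1 had folds of 2.29 and 3.07 and those of BIL2 2.53 and 2.02, at different places in the 2 replicates. At the replicate 1 places, gai-YPet replicate 2 had folds of 2.62 for BIL1 and 1.87 for BIL2. The peak of 3.07 was also counted for AT2G30984 and AT2G30985, and the peak of 2.02 for ARA-2. Neither BIL1 nor BIL2 had a peak in mutant replicate 2. Of the other SERK genes, the co-receptor family of BAK1, 0 of 4 had a peak in both replicates. SERK2 had 3.67 in gai-YPet replicate 2 and 2.29 in mutant replicate 1, and SERK1 had 1.85 in gai-YPet replicate 2. Of the BSK genes and CDG1, the cytoplasmic kinases that receive the signal from BRI1, 1 of 7 was counted. This was BSK1, with 3.89 and 4.06 in gai-YPet and 3.01 and 1.9 in the mutant. Of BSU1 and the 3 related BSL genes, 0 of 4 were counted. With so few genes, the counts for the SERK, BSK and BSL families are near the 18.1% of all genes.

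BRS1, a secreted carboxypeptidase gene found as a suppressor of a bri1 mutant, had folds of 5.63 and 4.69 in gai-YPet and 4.54 and 2.41 in the mutant, outside the gene. MYBL2, a MYB repressor gene, had 2.47 and 3.55 in gai-YPet and 2.42 in mutant replicate 1, and LPR2 was counted for the same peaks. None of the 23 reached the percentiles of BAK1 in any list. Their highest values were 84.1 and 90.6 in the gai-YPet lists, and 86.6 and 80.7 in the mutant lists.

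**Figure D4:**
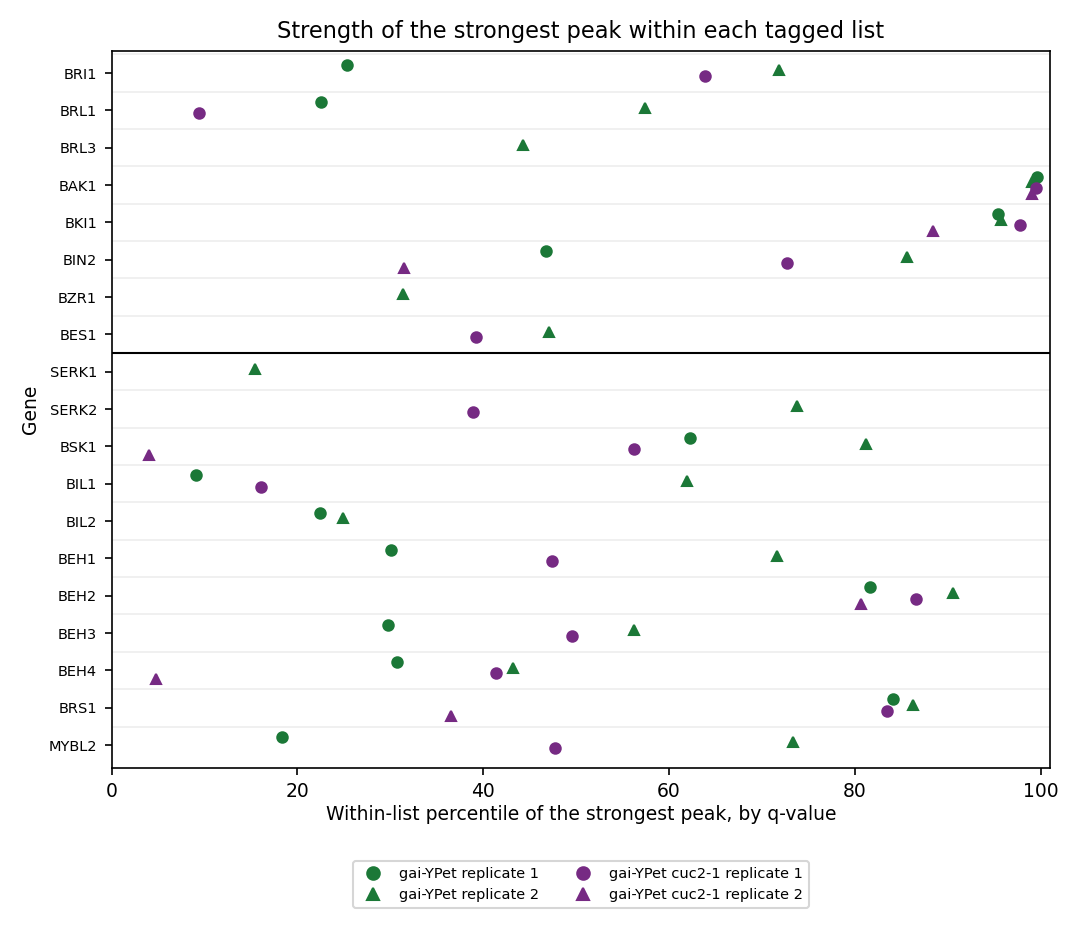
Within-list percentile by q-value of the strongest peak, for the 8 of 9 genes (above the line) and the 11 of 23 other signalling genes (below it) that had a peak in a tagged list. Of all 27444 nuclear protein-coding genes, 9112 had such a peak. BAK1 lies between 99.1 and 99.6 in the 4 lists, whereas BIN2 ranges from 31.5 to 85.6.

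Few genes of the pathway were strong in all lists, and the mean percentile over the 4 tagged lists, by the 1000 bp rule and with 0 where no peak was listed, gives an order. It was 99.3 for BAK1, 94.3 for BKI1, 59.1 for BIN2, 40.3 for BRI1, 22.3 for BRL1, 21.6 for BES1, 11.1 for BRL3, 7.85 for BZR1 and 0 for BSU1. The ranges of BAK1 and BKI1 over the lists did not overlap, and by the 1000 bp rule both lay above the other 7 genes in every list. The order depends on that limit: the site between 1000 and 2000 bp from BRI1, at percentiles of 96.5, 98.5, 97.3 and 97.3, lay above the BKI1 peak in all lists but mutant replicate 1. The first place of BAK1 rests on the summit that was nearer to AT4G33440. The weaker peak nearest to BAK1 stood at 80.6 in gai-YPet replicate 1 and at 87.8 and 72.7 in the mutant replicates. It lay below the BKI1 peak in each list that had it. From BIN2 downwards the ranges of neighbouring genes overlapped. Genes that shared their strongest peak in any list with the member compared were left out of the search for a similar pattern. Of the rest, AT3G45260 and AT2G45300 had percentiles over the same 4 lists nearest to those of BAK1. Their mean absolute differences were 0.131 and 0.167 percentile points. Nearest to BKI1 were AT5G45650 and AT3G28216, with 0.879 and 1 percentile points.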

How the data were processed

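ChIP-seq was done on inflorescences of 3 genotypes with 2 replicates each, and samples were grouped by source name. Per the submitters' processing notes, reads were handled with MACS2, Bowtie2, cutadapt, bedtools and SAMtools on build TAIR10, without versions. No settings are stated there. The deposited values of each peak are a score, the fold enrichment (a ratio), and its p-value and q-value as −log10. The deposited score equals 10 times the −log10 q, truncated, in every line. In the replicate 2 lists damaged decimal marks were restored with 5 decimals, which keeps that relation. Depth is unknown, so no counting interval is given.

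Gene positions came from a RefSeq table of assembly TAIR10.1 and are assumed to equal TAIR10 for nuclear chromosomes. All 9 genes matched it by locus tag and symbol, as did 23 of 24 other genes, and the remaining one was not used. Tagged peaks that overlapped a Ler peak by 1 bp were left out of gene calls, but kept in the permutation tests and the per-list counts at equal length. For calls in both replicates at equal length, they were left out after the lists were shortened. The planned motif search was not run, since no genome was used here. Named genes were the 9, the other signalling genes with a peak in both gai-YPet lists, genes that counted the same peak, and the 2 nearest in pattern to each of the 2 strongest. Those nearest in pattern were sought among genes that shared no strongest peak with the gene compared. SERK1, SERK2 and the nearest genes of sites beyond 1000 bp were named after their values were seen. The genes and lists were chosen with earlier results of these data known. Input libraries were not analysed here on their own.

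Gene assignment was tested on simulated data. In 6 simulated lists, all 200 planted genes were found, and 100% of 27444 genes were assigned as by bedtools 2.31.1. Python 3.11.15, numpy 2.4.6, and matplotlib 3.10.9 were used. Replicate numbers were not taken to pair samples across genotypes, since the labels call the replicates independent.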

Additional observations from a re-analysis of the deposited data

How the results depend on the processing

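The count of 5 genes with a peak in both gai-YPet replicates became 8 with 3000 bp to each side (30.3% of all genes), 2 in the stronger 50% of each list (10.3%), 2 with lists of equal length (9.6%) and 3 where the replicate peaks had to overlap by 50% of each (11.9%). It ranged from 5 to 8 when either replicate was left out. BAK1 and BKI1 were the 2 that stayed in the stronger 50% and at equal length. BAK1 was not among the 3 with the 50% overlap, because its gai-YPet replicate 2 peak is much wider than the replicate 1 peaks. The count of 3 in gai-YPet cuc2-1 became 7 with 3000 bp (18.1% of all genes) and ranged from 3 to 6 when either replicate was left out. Longer windows and longer lists call more genes of any kind by construction.

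The difference between the genotypes at equal length, -0.5 genes, became 0.5 in the stronger 50% of each list and 2 with the lists as deposited, and ranged from -1.5 to 0.5 when a list was left out. The cause was not tested. With the replicate number as a block it was -0.5, and the tagged against Ler difference was 5.5 (exact sign-flip test, two-sided p = 1 and p = 0.5, where 0.5 is the smallest possible). The replicate differences in percentile of the tagged genotypes correlated at 0.04 over 9112 genes with a peak in any tagged list. A gene without a peak was set to 0, and the longer list was replicate 2 in gai-YPet but replicate 1 in the mutant. This correlation therefore cannot tell whether the replicates were paired. Of 42 alternatives, 31 kept the direction or stayed within 1.5 times the main count, 8 moved and 3 reversed. The 3 reversals were all in the difference between the genotypes. The 31 include the Ler counts and the tagged against Ler comparison, which the short Ler lists could hardly change. The total is therefore no measure of how stable the other results are. Keeping the peaks on Ler peaks changed neither count. Without read totals, a peak absent from a short list was not detectable there, which is not absence.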
